A study of Mus musculus with 9 samples.

Results

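The 9 genes described here carry a type I interferon signal from the cell surface to the genome: the receptor chains Ifnar1 and Ifnar2, the receptor-bound kinases Jak1 and Tyk2, the transcription factor Stat2, and the interferon regulatory factors Irf1, Irf3, Irf7 and Irf9. They were taken by gene symbol, each as the row whose Ensembl identifier carries that symbol, from the 55335 genes of the count files. Of those genes, 13611 had enough counts to be tested, and all 9 members were among them. The RNA came from D2A1-d cells, a murine breast carcinoma line, in 3 groups of 3 samples. Cells of the first 2 groups had been transduced with a short hairpin RNA against Med1, named shMed1 #2 or shMed1 #4, and bear the genotype label Med1 Knockdown. Cells of the third had been given a control hairpin that targets no gene (NTC, non-targeting control) and bear the genotype label WT. All groups come from 1 cell line kept in serum medium, and no interferon or other agent is given for any of them. The labels call the samples biological replicates but do not say whether each came from its own transduction or culture, and p-values therefore cover no more than the spread seen among them, part or all of which may be technical.

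Interferon alpha and beta bind a receptor made of IFNAR1 and IFNAR2, whose cytoplasmic tails hold the kinases TYK2 and JAK1. These phosphorylate STAT proteins; STAT2 with a STAT partner joins IRF9 in the complex called ISGF3, which binds interferon-stimulated response elements (ISRE) and switches on antiviral genes. IRF3 and IRF7 act upstream, where they switch on interferon genes after sensing of viral nucleic acid, while IRF1 is itself induced by interferons, most strongly by interferon gamma through gamma-activated sites (GAS). Mediator, the complex that MED1 belongs to, links transcription factors to RNA polymerase II.

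The promoters of 4 members are shown. Those of Stat2 and Irf1 hold a match to these elements, and the transcripts of Stat2, Irf9 and Irf7 differed most from NTC. Ifnar1 and Ifnar2 also hold a match, but their windows are not printed. Each runs 5′ to 3′ on the gene's own strand, from 250 bases before to 50 bases after a RefSeq start site (GRCm38.p6), and capitals mark a match. The motifs searched, on both strands, were GAAANNGAAA for the ISRE and TTCNNNGAA for the GAS.

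Stat2, chr10:128270248-128270547, plus strand: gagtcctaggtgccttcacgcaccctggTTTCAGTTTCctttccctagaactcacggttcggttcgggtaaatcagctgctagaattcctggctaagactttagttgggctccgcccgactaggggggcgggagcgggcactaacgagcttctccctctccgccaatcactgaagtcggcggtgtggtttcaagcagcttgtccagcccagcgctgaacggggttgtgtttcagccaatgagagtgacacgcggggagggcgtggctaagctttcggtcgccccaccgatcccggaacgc

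Irf9, chr14:55603735-55604034, plus strand, the first of 2 start sites: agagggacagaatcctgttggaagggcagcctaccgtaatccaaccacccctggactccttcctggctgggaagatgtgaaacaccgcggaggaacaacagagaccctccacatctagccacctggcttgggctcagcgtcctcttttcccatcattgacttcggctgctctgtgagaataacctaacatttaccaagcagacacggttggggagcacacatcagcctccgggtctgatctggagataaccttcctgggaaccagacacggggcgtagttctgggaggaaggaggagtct

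Irf7, chr7:141266375-141266674, minus strand: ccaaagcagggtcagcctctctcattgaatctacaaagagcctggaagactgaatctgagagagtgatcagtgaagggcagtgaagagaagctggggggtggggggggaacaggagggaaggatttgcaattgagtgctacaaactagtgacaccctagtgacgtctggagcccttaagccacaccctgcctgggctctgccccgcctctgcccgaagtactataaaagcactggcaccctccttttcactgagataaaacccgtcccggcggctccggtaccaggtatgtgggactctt

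Irf1, chr11:53769764-53770063, plus strand, the first of 2 start sites: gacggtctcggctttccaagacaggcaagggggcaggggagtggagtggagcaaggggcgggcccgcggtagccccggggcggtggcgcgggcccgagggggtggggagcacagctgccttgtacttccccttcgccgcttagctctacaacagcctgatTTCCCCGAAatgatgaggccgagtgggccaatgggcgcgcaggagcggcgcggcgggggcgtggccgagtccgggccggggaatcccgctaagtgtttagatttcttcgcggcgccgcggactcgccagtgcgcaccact

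Windows were found for 9 of the 9 members. The ISRE letters occurred in 1 member, Stat2, on the reverse strand at bases -222 to -213 from the start, where the window reads TTTCAGTTTC. They occurred in 3.44% of all 32851 windows and, counted by gene as the members are, in 3.99% of all 27025 genes with a window. The GAS letters occurred in 3 members, Ifnar1 (TTCACGGAA, bases -5 to 4), Ifnar2 (TTCCTGGAA, -214 to -206) and Irf1 (TTCCCCGAA, -90 to -82). GAS letters occurred in 8.3% of all windows and in 9.55% of all genes with a window. The windows of Irf7 and Irf9 held neither motif in these exact letters. No match of one motif overlapped a match of the other in the member windows. Those of Jak1, Tyk2 and Irf3 held neither as well. The Stat2 window ends before the GENCODE start of the gene. Both Irf9 windows lie wholly inside the GENCODE gene, so the bases before its GENCODE start were not searched. A match describes the letters and does not show that a factor binds there.

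Med1 transcripts, which check the labels, were lower in all 6 hairpin samples. They measured 22.1, 25.2 and 24.7 CPM (counts after scaling all libraries to one size) in shMed1 #2 samples, 25.02, 26.6 and 25.5 CPM in shMed1 #4 samples and 85.6, 87.5 and 79.8 CPM in NTC samples. The log2 fold change against NTC was -1.81 (adjusted p = 5.67e-36) with shMed1 #2 and -1.71 (adjusted p = 6.39e-34) with shMed1 #4 in edgeR's quasi-likelihood test with Benjamini-Hochberg adjustment over the 13611 genes. Genes with an adjusted p under 0.05 in that test are referred to as called, and every adjusted p against NTC or between hairpins comes from it unless another is named. Libraries held 8123918 to 8879982 counts, and 3 counts correspond to 0.345 to 0.364 CPM.

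Markers of the labelled cell type and of other cell types were mixed. Of 7 epithelial markers Epcam and Krt5 had 0 counts in every library and Cdh1 had 0 to 2, while the keratin genes Krt18 and Krt8 were expressed. Krt18 averaged 18.8 CPM in shMed1 #2 samples, 43.7 CPM in shMed1 #4 samples and 50.7 CPM in NTC samples, and Krt8 1.92 CPM, 3.48 CPM and 6.49 CPM. Both fell (log2 fold changes with shMed1 #2 and shMed1 #4 of -1.43 and -0.21 for Krt18, -1.74 and -0.89 for Krt8), although the call of Krt18 with shMed1 #4 was lost in DESeq2 and without any 1 of the NTC libraries or shMed1 #4 replicate 2 (adjusted p = 0.0506 to 0.237). The 7 markers summed to 19.1 to 22.2 CPM, 41.3 to 51.8 CPM and 56.5 to 58.3 CPM in the same groups. The 5 mesenchymal markers summed to 4690.3 to 4908 CPM, 4883 to 5089 CPM and 4092 to 4272 CPM, but they did not share a direction. Vim rose with both hairpins (0.57 and 0.38), Fn1 fell with shMed1 #2 and rose with shMed1 #4 (-0.20 and 0.11), Cdh2 did the opposite at low counts (0.63 and -0.96, each call lost without some single libraries), and Snai2 and Zeb1 were not called, apart from Snai2 without shMed1 #2 replicate 2 or shMed1 #4 replicate 3 (adjusted p = 0.0436 and 0.00636). Of 9 leukocyte and plasmacytoid dendritic cell markers, 5, among them Cd3e, Itgam, Adgre1 and Siglech, were at 0 in every library and Ptprc had 0 to 2 counts. Csf1r had 90 to 135 counts and Cd68 16 to 27 counts per library, and neither was called (Csf1r -0.24 and -0.25, Cd68 -0.02 and 0.07). The summed level of the 9 was 13.9 to 17.1 CPM, 14.3 to 15.7 CPM and 16.8 to 19.7 CPM in the same groups, and that of 4 endothelial markers 0.461 to 1.04 CPM, 0.348 to 0.963 CPM and 0.579 to 0.727 CPM. Whether these marker shifts bear on the interferon genes was not tested. In bulk RNA, fewer cells expressing a gene and less RNA per cell cannot be told apart.

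Both receptor chains fell with either hairpin. Ifnar1, the chain that binds TYK2, had 67.0, 71.1 and 69.7 CPM in shMed1 #2 samples, 70.8, 68.6 and 74.5 CPM in shMed1 #4 samples and 88.6, 85.1 and 93.1 CPM in NTC samples. All 6 hairpin samples lay below the lowest NTC sample. The log2 fold change of Ifnar1 was -0.36 (SE 0.0590, adjusted p = 2.94e-07) under shMed1 #2 and -0.32 (SE 0.0589, adjusted p = 9.16e-06) under shMed1 #4, which leaves 77.9% and 80.2% of the NTC level. Ifnar2, the chain that binds JAK1 and STAT2, had 27.8, 25.7 and 26.7 CPM in shMed1 #2 samples, 29.4, 31.9 and 28.5 CPM in shMed1 #4 samples and 38.4, 44.7 and 43.4 CPM in NTC samples. The groups did not overlap here either, and every shMed1 #2 sample was below every shMed1 #4 sample. Its log2 fold change was -0.66 (SE 0.0841, adjusted p = 2.76e-10) under shMed1 #2 and -0.50 (SE 0.0828, adjusted p = 1.09e-06) under shMed1 #4. The remaining Ifnar2 level was 63.4% of NTC with shMed1 #2 and 70.9% with shMed1 #4. Between the hairpins neither chain passed the test: shMed1 #4 minus shMed1 #2 was 0.04 for Ifnar1 (95% interval -0.08 to 0.16, adjusted p = 0.672) and 0.16 for Ifnar2 (-0.01 to 0.34, adjusted p = 0.178). The receptor genes lie near each other on chromosome 16 of GRCm38, Ifnar2 (ENSMUSG00000022971.18) at 91372783 to 91405589 and Ifnar1 (ENSMUSG00000022967.13) at 91485238 to 91507441, both on the plus strand. Between and beside them lie further receptor genes of the same cluster, Il10rb and Ifngr2, whose values are given among the other interferon receptors.

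Of the receptor-bound kinases, Tyk2 fell with both hairpins and Jak1 passed the test with neither. Tyk2 (ENSMUSG00000032175.11, chromosome 9, 21104068 to 21131243, minus strand) had 19.7, 21.9 and 19.7 CPM in shMed1 #2 samples, 21.6, 23.6 and 19.4 CPM in shMed1 #4 samples and 31.0, 32.1 and 28.6 CPM in NTC samples. Every hairpin sample was below every NTC sample, while the hairpins overlapped each other. Tyk2 had a log2 fold change of -0.58 (SE 0.0966, adjusted p = 4.66e-07) under shMed1 #2 and -0.51 (SE 0.0961, adjusted p = 1.58e-05) under shMed1 #4. Jak1 (ENSMUSG00000028530.14, chromosome 4, 101152367 to 101265282, minus strand), a kinase shared by many cytokine receptors, had 218, 214 and 227 CPM in shMed1 #2 samples, 227, 225 and 206 CPM in shMed1 #4 samples and 224, 223 and 222 CPM in NTC samples. The 3 NTC samples lay within the range of either hairpin's samples. Its log2 fold change was -0.02 with shMed1 #2 (95% interval -0.11 to 0.07, adjusted p = 0.752) and -0.02 with shMed1 #4 (-0.11 to 0.07, adjusted p = 0.753). Jak1 was the 1 member called with neither hairpin, and its intervals limit a decrease to 0.11 on the log2 scale.

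**Figure D1:**
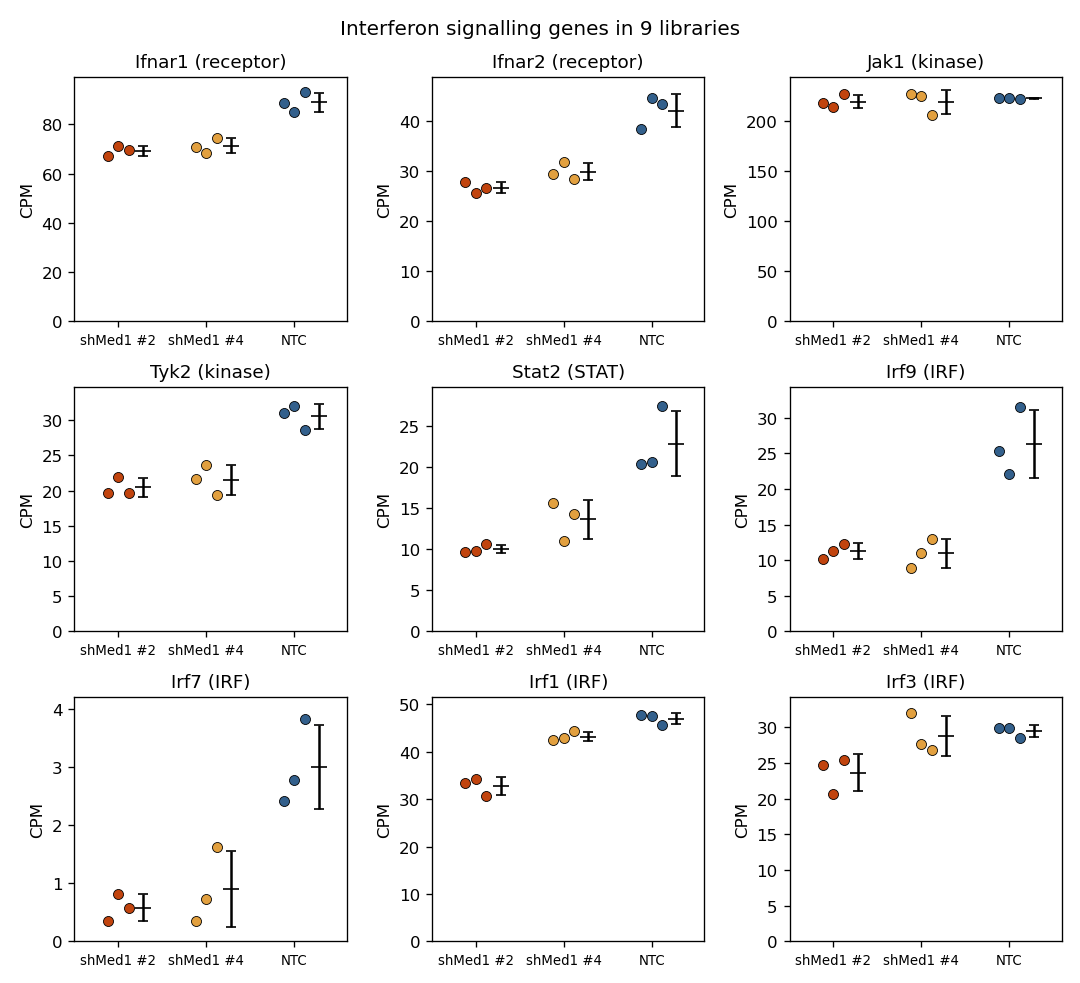
Level of each of the 9 genes in every sample, in CPM, the scaled counts (vertical axis, from 0, own scale per gene). Points are samples, with shMed1 #2 at left, shMed1 #4 in the middle and NTC at right, and bars give the mean ± SD of 3 samples. Jak1 stands near 220 CPM in all groups, while the Irf9 points of both hairpins lie at 8.96 to 13.0 CPM, below NTC at 22.1 to 31.5 CPM.

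The ISGF3 genes Stat2 and Irf9 fell with both hairpins, with more negative log2 fold changes than the receptor and kinase genes. Stat2 (ENSMUSG00000040033.16, chromosome 10, 128270559 to 128292849, plus strand), whose promoter window above carries the ISRE letters, had 9.66, 9.75 and 10.6 CPM in shMed1 #2 samples, 15.6, 10.95 and 14.3 CPM in shMed1 #4 samples and 20.4, 20.6 and 27.3 CPM in NTC samples. All hairpin samples were below all NTC samples, and the lowest shMed1 #4 sample was above the highest shMed1 #2 sample. The log2 fold change of Stat2 was -1.19 (SE 0.127, adjusted p = 9.08e-13) under shMed1 #2 and -0.74 (SE 0.121, adjusted p = 6.76e-07) under shMed1 #4, leaving 43.9% and 59.8% of the NTC level. Irf9 (ENSMUSG00000002325.15, chromosome 14, 55603571 to 55610030, plus strand), which gives ISGF3 its DNA-binding specificity, had 10.1, 11.3 and 12.3 CPM in shMed1 #2 samples, 8.96, 10.95 and 13.0 CPM in shMed1 #4 samples and 25.3, 22.1 and 31.5 CPM in NTC samples. No hairpin sample reached the lowest NTC sample, and the hairpins overlapped. Irf9 had a log2 fold change of -1.23 (SE 0.124, adjusted p = 2.46e-13) under shMed1 #2 and -1.26 (SE 0.125, adjusted p = 3.54e-13) under shMed1 #4. Both hairpins left Irf9 at a like share of the NTC level, 42.7% with shMed1 #2 and 41.7% with shMed1 #4, and shMed1 #4 minus shMed1 #2 was -0.03 (95% interval -0.32 to 0.25, adjusted p = 0.899).

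Irf7, which amplifies type I interferon production and is itself an interferon-induced gene, had the most negative log2 fold change of the 9 with each hairpin, at the lowest counts. Irf7 (ENSMUSG00000025498.15, chromosome 7, 141262706 to 141266481, minus strand) had 3, 7 and 5 counts in shMed1 #2 samples, 3, 6 and 14 counts in shMed1 #4 samples and 20, 23 and 33 counts in NTC samples. These are 0.345, 0.813 and 0.576 CPM, 0.349, 0.722 and 1.62 CPM and 2.42, 2.77 and 3.82 CPM in the same groups. The highest hairpin sample, replicate 3 of shMed1 #4, stayed below the lowest NTC sample, while the lowest samples of both hairpins sat at 3 counts. Irf7 passed the filter on low counts only because of its NTC libraries. The log2 fold change of Irf7 was -2.36 (SE 0.397, adjusted p = 6.04e-07) under shMed1 #2 and -1.73 (SE 0.362, adjusted p = 8.80e-05) under shMed1 #4. The summed counts gave a ratio of 0.191 of NTC with shMed1 #2 (exact 95% interval 0.102 to 0.336) and 0.299 with shMed1 #4 (0.179 to 0.481), scaled for library size and covering counting error only. Leaving out 1 library moved the log2 fold change of Irf7 between -2.67 and -2.09 with shMed1 #2 and between -2.47 (without shMed1 #4 replicate 3) and -1.34 (without shMed1 #4 replicate 1) with shMed1 #4, and the call held each time.

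NTC replicate 3 was the highest NTC library for Stat2, Irf7 and Irf9. In that library the 37 interferon-stimulated effector genes listed here also summed to 520.0 CPM, against 422 and 431 CPM in the other NTC libraries. Without NTC replicate 3 the log2 fold changes with shMed1 #2 and shMed1 #4 were -1.03 and -0.59 for Stat2, -2.14 and -1.51 for Irf7, and -1.08 and -1.11 for Irf9. All 6 values stayed past the threshold, with adjusted p from 2.61e-10 to 0.00401.

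Irf1 and Irf3 fell with shMed1 #2 and did not pass the test with shMed1 #4. Irf1 (ENSMUSG00000018899.16, chromosome 11, 53770014 to 53778374, plus strand) had 33.5, 34.3 and 30.7 CPM in shMed1 #2 samples, 42.5, 42.8 and 44.4 CPM in shMed1 #4 samples and 47.9, 47.5 and 45.7 CPM in NTC samples. The shMed1 #2 samples were the 3 lowest, and the shMed1 #4 samples lay between them and NTC without overlapping either. Irf1 had a log2 fold change of -0.52 (SE 0.0765, adjusted p = 1.87e-08) under shMed1 #2 and -0.12 (SE 0.0733, adjusted p = 0.229) under shMed1 #4. Irf3 (ENSMUSG00000003184.15, chromosome 7, 44997648 to 45002848, plus strand), a factor that is present before infection and is activated by phosphorylation, had 24.7, 20.7 and 25.5 CPM in shMed1 #2 samples, 32.0, 27.7 and 26.8 CPM in shMed1 #4 samples and 29.9, 29.9 and 28.5 CPM in NTC samples. All shMed1 #2 samples were below the other 6, while the shMed1 #4 samples spanned the NTC range. Irf3 had a log2 fold change of -0.32 (SE 0.0945, adjusted p = 0.00407) under shMed1 #2 and -0.03 (SE 0.0917, adjusted p = 0.850) under shMed1 #4. Without shMed1 #2 replicate 2, its lowest sample, the value with shMed1 #2 was -0.23 (adjusted p = 0.0708 in the same edgeR test).

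**Figure D2:**
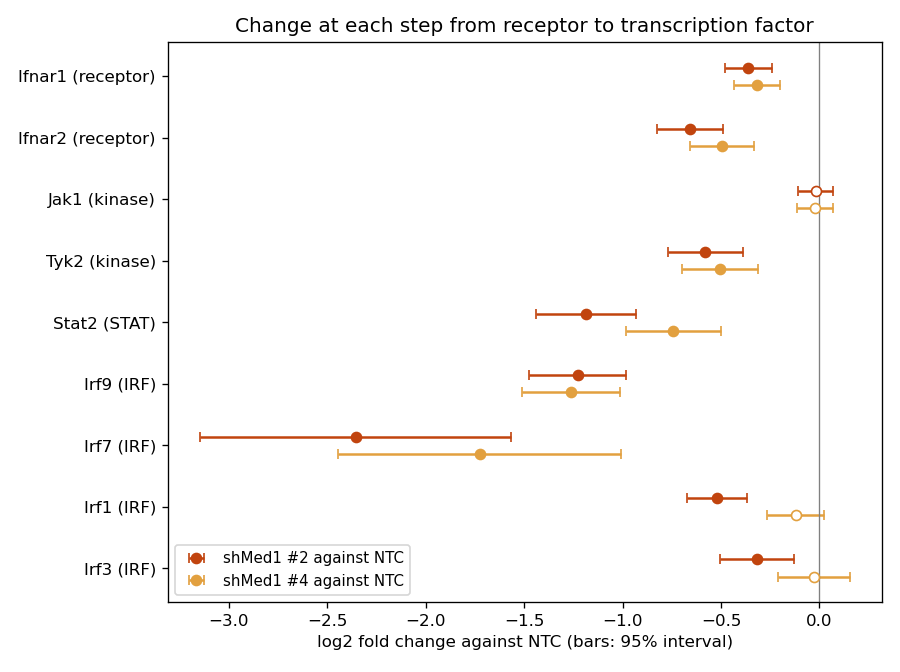
Log2 fold change of the 9 genes against NTC (horizontal axis) with shMed1 #2 and, just below it, with shMed1 #4, with 95% intervals of the edgeR fit. Filled points passed an adjusted p of 0.05 over the 13611 genes tested and open points did not. Irf7, Irf9 and Stat2 lie farthest below 0 with both hairpins, and Jak1 lies at -0.02.

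The hairpins were also set against each other, since a call with one and not with the other does not show a difference. Irf1 was higher with shMed1 #4 than with shMed1 #2 by 0.40 (SE 0.0773, adjusted p = 2.78e-05) on the log2 scale, with a 95% interval of 0.25 to 0.55. Stat2 was higher by 0.45 (SE 0.139, adjusted p = 0.0115), with an interval of 0.17 to 0.72. Irf3 was higher by 0.29 (SE 0.0946, adjusted p = 0.0167), with an interval of 0.10 to 0.48. The Irf1 difference kept its call in every alternative tried. The Stat2 difference lost it without shMed1 #4 replicate 1 (0.34, adjusted p = 0.119). The Irf3 difference lost it in DESeq2 (0.29, adjusted p = 0.0678), without shMed1 #2 replicate 2 (0.20, adjusted p = 0.174) and without shMed1 #4 replicate 1 (0.20, adjusted p = 0.168), so that without that last library 1 member, Irf1, was called. The Irf7 difference of 0.63 had a wide interval (-0.40 to 1.65, adjusted p = 0.410). Med1 itself differed by 0.10 between the hairpins (-0.08 to 0.28, adjusted p = 0.461).

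Counted together, 8 of the 9 members were lower with shMed1 #2 and 0 were higher, where 21.9% of all tested genes were lower and 21.8% higher. With shMed1 #4, 6 were lower and 0 higher, where 14.1% of all tested genes were lower and 14% higher. The 6 were Ifnar1, Ifnar2, Tyk2, Stat2, Irf7 and Irf9, and all 6 were lower with both hairpins. These contrasts share the NTC libraries, so they are not separate evidence. The share of all tested genes lower with both hairpins is not given here, so the overlap of 6 has no background to be read against. With the mean of both hairpins 7 members were lower and 0 higher, beside 20.2% and 19.7% of all genes. Irf3 was then at -0.17 (adjusted p = 0.0781), and it passed with upper quartile scaling (adjusted p = 0.0441), with library size alone (0.0300) and without shMed1 #4 replicate 1 (0.0349). For shMed1 #4 against shMed1 #2, 3 members were higher and 0 lower, beside 12.9% and 13.1% of all genes. The members' median log2 fold change was -0.58 with shMed1 #2 and -0.50 with shMed1 #4, where the median of all tested genes was 0.00 on each. The members were chosen with earlier results of these data known, and Irf7 was tested only because of its NTC level. These counts and medians are therefore no independent result.

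The log2 fold changes can be set along the pathway. With shMed1 #2 the receptor chains stood at -0.36 and -0.66, the kinases Jak1 and Tyk2 at -0.02 and -0.58, the ISGF3 genes Stat2 and Irf9 at -1.19 and -1.23, and Irf7, Irf1 and Irf3 at -2.36, -0.52 and -0.32. With shMed1 #4 the receptor chains stood at -0.32 and -0.50, the kinases at -0.02 and -0.51, the ISGF3 genes at -0.74 and -1.26, and Irf7, Irf1 and Irf3 at -1.73, -0.12 and -0.03. The values did not follow the order of the steps: genes of 1 step differed, as Jak1 from Tyk2 and Irf7 from Irf3, and with shMed1 #2 Tyk2 lay between the receptor chains. The 95% interval of Irf9 lay below those of both receptor chains and Tyk2 with either hairpin. That of Stat2 did so with shMed1 #2 (-1.44 to -0.93), but with shMed1 #4 (-0.98 to -0.50) it overlapped those of Ifnar2 (-0.66 to -0.33) and Tyk2 (-0.70 to -0.31). Among all tested genes, 0.654% had a lower log2 fold change than Irf7 with shMed1 #2 and 0.470% with shMed1 #4. For Irf9 these shares were 2.78% and 1.11%, and for Stat2 2.94% and 3.14%. Ifnar2 and Tyk2 lay between 6.27% and 9.56%, and Ifnar1 at 17.7% and 12.9%. Irf1 was at 11.3% and 30.1%, Irf3 at 19.9% and 44.5%, and Jak1 near the middle of all genes at 48.0% and 45.6%. Fold changes of low genes such as Irf7 have wider intervals than those of abundant ones, so the order is one of estimates. Irf7 was also among the tested genes only because of its NTC level, so its place among them is no independent result.

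**Figure D3:**
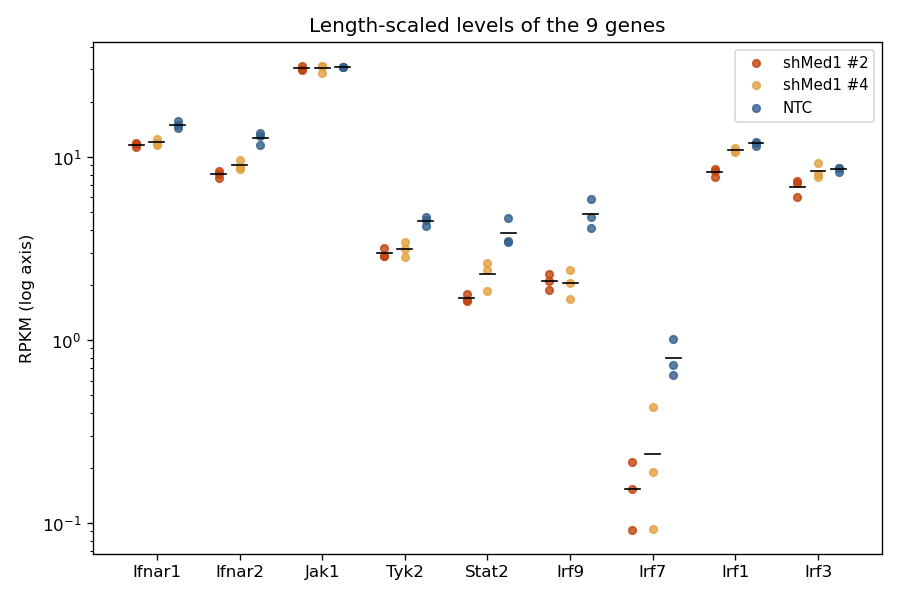
Level per length of the 9 genes in RPKM, the CPM divided by the exon length in kilobases (log axis) in every sample, with shMed1 #2, shMed1 #4 and NTC from left to right. Points are samples and bars are means of 3. On the union exon lengths used, Jak1 is highest and Irf7 lowest in all groups, and Irf9 and Stat2 lie below Tyk2 in both hairpin groups.

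Levels of different genes were compared per length, as RPKM over the union of annotated exons. That union can be longer than the transcripts present. For Irf7 it is 3776 bases, its whole span from 141262706 to 141266481. The order of different genes therefore depends on the lengths used, whereas a comparison of 1 gene between groups does not. Jak1 was the most abundant member at 30.4 ± 0.896 RPKM in shMed1 #2 samples, 30.4 ± 1.62 RPKM in shMed1 #4 samples and 30.8 ± 0.0831 RPKM in NTC samples (mean ± SD, n = 3 each). Irf7 was the least abundant at 0.153 ± 0.0620 RPKM, 0.238 ± 0.173 RPKM and 0.796 ± 0.193 RPKM in the same groups. The median tested gene stood at 6.95, 7.02 and 7.08 RPKM in those groups. In NTC the order below Jak1 was Ifnar1, Ifnar2, Irf1, Irf3, Irf9, Tyk2, Stat2 and Irf7, and the samples of Ifnar2 overlapped those of Irf1, as did those of Irf9 with Tyk2 and of Tyk2 with Stat2. Irf9 averaged 2.09 ± 0.206 RPKM in shMed1 #2 samples, 2.04 ± 0.374 RPKM in shMed1 #4 samples and 4.88 ± 0.890 RPKM in NTC samples, and Tyk2 averaged 2.98 ± 0.190, 3.14 ± 0.308 and 4.45 ± 0.259 RPKM. On these lengths Irf9 stood below Tyk2 without overlap in both hairpin groups and overlapped it in NTC. Irf1 averaged 8.25 ± 0.475, 10.9 ± 0.257 and 11.8 ± 0.287 RPKM, and Ifnar2 8.03 ± 0.324, 8.997 ± 0.524 and 12.7 ± 0.997 RPKM. With shMed1 #2 the order was Jak1, Ifnar1, Irf1, Ifnar2, Irf3, Tyk2, Irf9, Stat2 and Irf7, and of these neighbours the samples of Irf1 and Ifnar2 overlapped. With shMed1 #4 it was Jak1, Ifnar1, Irf1, Ifnar2, Irf3, Tyk2, Stat2, Irf9 and Irf7, with overlaps of Ifnar2 with Irf3 and of Stat2 with Irf9. With shMed1 #4 every Irf1 sample was above every Ifnar2 sample, whereas these genes overlapped with shMed1 #2 and in NTC.

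Exons of 7 members overlap those of another annotated gene, and the sources used here do not give the strand setting of the count, so reads in the overlaps cannot be assigned with certainty. Irf1 shares 135 exon bases with Gm17334 on the opposite strand, which had a log2 fold change of -0.51 (SE 0.139, adjusted p = 0.00173) under shMed1 #2 and -0.34 (SE 0.137, adjusted p = 0.0548) under shMed1 #4. Irf3 shares 88 bases with Bcl2l12 on the opposite strand, which was not called (-0.20 and -0.00, adjusted p = 0.127 and 0.999). Tyk2 shares 554 bases with the antisense gene 1700084C06Rik, which was not called either (-0.01 and -0.06). Irf9 shares 123 bases with Rnf31 on its own strand (-0.05 and -0.09, no call). Ifnar2 shares 315 bases with Gm21970, which had 0 counts in every library. The overlaps of Irf7 with Phrf1 and of Jak1 with Raver2 cover 45 and 4 bases.

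Interferons themselves were hardly seen. Of the 13 interferon genes and other interferon receptors listed, 7 had 0 counts in all 9 libraries, among them Ifna1, Ifna2, Ifna4, Ifng, Ifnl2 and Ifnl3. A count of 0 allows a level of up to 3 counts, or 0.345 to 0.364 CPM in these libraries. Ifnb1 had 3 counts in shMed1 #2 replicate 1 and 0 elsewhere. The 3 tested genes of the list were receptor chains. Ifngr2, a chain of the interferon gamma receptor, averaged 21.1 CPM in shMed1 #2 samples, 29.5 CPM in shMed1 #4 samples and 30.9 CPM in NTC samples. It fell with shMed1 #2 by a log2 fold change of -0.55 (SE 0.0946, adjusted p = 1.04e-06) and stood at -0.07 with shMed1 #4 (adjusted p = 0.642). Its partner Ifngr1 (0.06 and -0.19) and Il10rb (0.20 and 0.12), a chain of the interferon lambda receptor, were not called with either hairpin. In this and the following lists the first value after a gene belongs to shMed1 #2 and the next to shMed1 #4, both as log2 fold changes against NTC. The counts in each list are to be read against the shares of all tested genes, 21.9% lower and 21.8% higher with shMed1 #2 and 14.1% lower and 14% higher with shMed1 #4. The lists, too, were chosen with earlier results of these data known, so their counts describe them and are no independent result.

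Among 6 other tested JAK kinases and STATs, 1 was lower and 2 higher with shMed1 #2, and 0 lower and 2 higher with shMed1 #4. Stat6, which acts downstream of interleukin 4, rose (0.56 and 0.36, adjusted p = 1.08e-15 and 3.75e-08). Jak2, which serves the interferon gamma receptor among others, also rose (0.30 and 0.32), although without shMed1 #4 replicate 2 its value with shMed1 #4 was 0.22 (adjusted p = 0.0702), which leaves 1 gene of the list higher. The 1 gene lower was Jak3 (-0.27, adjusted p = 0.0248), and 0 genes of the list were lower in DESeq2, without NTC replicate 1 or without shMed1 #2 replicate 3, against 2 with library size alone. Stat5a (-0.24 and -0.17) and Stat5b (0.13 and 0.09) were not called, apart from Stat5a with shMed1 #2 under library size alone (adjusted p = 0.0453). The median of the list was 0.11 with shMed1 #2 and 0.08 with shMed1 #4.

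Of 5 other tested IRFs and IRF2-binding proteins, 3 were lower and 0 higher with either hairpin, with medians of -0.21 and -0.17. The 3 were the IRF2-binding protein genes Irf2bp2 (-0.73 and -0.44), Irf2bp1 (-0.50 and -0.21) and Irf2bpl (-0.21 and -0.17). With shMed1 #4 the calls of Irf2bp1 and Irf2bpl were both lost in DESeq2 and without shMed1 #4 replicate 2, leaving 1 gene lower. That of Irf2bp1 was also lost without the filter on low counts and without NTC replicate 1, 2 or 3 or shMed1 #4 replicate 3 (adjusted p = 0.0502 to 0.177), and that of Irf2bpl without shMed1 #4 replicate 1 (adjusted p = 0.0645). Irf5 was at -0.13 and -0.15 and was not called, except without shMed1 #4 replicate 3 (-0.25 with shMed1 #4, adjusted p = 0.0172).

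Negative regulators gave calls in both directions. Of 17 tested, 4 were lower and 6 higher with shMed1 #2, and 1 was lower and 2 higher with shMed1 #4 (2 lower without shMed1 #4 replicate 3). The lower count with shMed1 #2 is near the 21.9% of all genes, and both counts with shMed1 #4 lie below the 14.1% and 14% of all genes. Usp18, an interferon-induced protease that binds IFNAR2 and limits signalling, had 6, 0 and 3 counts in shMed1 #2 samples, 7, 5 and 4 counts in shMed1 #4 samples and 20, 12 and 44 counts in NTC samples. NTC replicate 3 was again the highest library. Usp18, too, passed the filter on low counts only because of its NTC libraries. Usp18 had a log2 fold change of -3.07 (SE 0.525, adjusted p = 8.74e-06) under shMed1 #2 and -2.24 (SE 0.464, adjusted p = 0.000268) under shMed1 #4. At these counts single libraries moved it: with shMed1 #2 it was -4.00 without shMed1 #2 replicate 1 and -2.43 without NTC replicate 3, and with shMed1 #4 it was -1.60 without NTC replicate 3, still called each time. Ptpn1 (0.22 and 0.19), a phosphatase that acts on JAK2 and TYK2, and Ptpn11 (0.17 and 0.17), which encodes SHP2, rose with both hairpins. Ptpn6, which encodes SHP1, fell with shMed1 #2 (-0.76, adjusted p = 0.000245) and was at -0.11 with shMed1 #4 without a call. The medians were 0.13 and 0.07.

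The list of genes taken to act on IRF3 and IRF7 held kinases, adaptors and coactivators, and also importin genes. Of 14 tested, 1 was lower and 8 higher with shMed1 #2, and 1 was lower and 2 higher with shMed1 #4. The 2 higher with shMed1 #4 were the importin genes Kpna1 and Kpna2, which were also higher with shMed1 #2. The IRF kinase gene Ikbke averaged 13.3 CPM in shMed1 #2 samples, 13.6 CPM in shMed1 #4 samples and 20.7 CPM in NTC samples, and fell (-0.64 and -0.61, adjusted p = 2.58e-06 and 1.24e-05). Its relative Tbk1 rose with shMed1 #2 (0.25, adjusted p = 0.00123) and was at 0.11 with shMed1 #4 without a call. The importin gene Kpna1, whose product carries activated STAT dimers to the nucleus, averaged 99.3 CPM in shMed1 #2 samples, 91.4 CPM in shMed1 #4 samples and 43.6 CPM in NTC samples, and rose (1.19 and 1.07). Kpna2, a further importin gene, rose less (0.22 and 0.38). The medians were 0.13 and 0.06. With shMed1 #2 the count of higher genes was 5 with upper quartile scaling, library size alone, or without NTC replicate 1 or 3. The count of lower genes was 2 with either scaling, with only the groups compared or without NTC replicate 3, and with shMed1 #4 it was 2 without shMed1 #4 replicate 3.

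Cytokine receptors that share JAK1 or TYK2 with the interferon receptor gave 3 lower of 13 tested with shMed1 #2 and 5 lower with shMed1 #4, with medians of -0.20 and -0.18. Il4ra, the interleukin 4 receptor chain, fell with both (-0.26 and -0.33), except without shMed1 #2 replicate 3 (-0.18, adjusted p = 0.101). Crlf2, a chain of the thymic stromal lymphopoietin receptor (-0.48 and -0.38), fell with both as well, but its call was lost without NTC replicate 2 with either hairpin (adjusted p = 0.0603 and 0.228) and, with shMed1 #4, without any of 3 further libraries. Il13ra1, an interleukin 13 receptor chain, fell with shMed1 #2 (-1.05, adjusted p = 1.02e-07) and was at 0.15 with shMed1 #4 (adjusted p = 0.465). The remaining lower genes with shMed1 #4 were Il6st (-0.18), Il11ra1 (-0.43) and Il12rb1 (-0.32). The 5 became 3 in DESeq2, without the filter on low counts, and without NTC replicate 2 or 3 or shMed1 #4 replicate 1 or 2. With shMed1 #2 the 3 became 5 with upper quartile scaling or library size alone.

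Interferon-stimulated effectors, the output of the pathway, were lower in most tested genes. Of 37 listed, 27 were tested. Of these, 20 were lower and 0 higher with shMed1 #2, and 22 were lower and 0 higher with shMed1 #4. The 19 lower with both have no share of all genes to be read against. Without NTC replicate 3 the counts of lower genes were 19 with shMed1 #2 and 20 with shMed1 #4. Some tested effectors, among them Parp14 and Gbp3, passed the filter on low counts only because of their NTC libraries. The counts of lower genes therefore depend in part on that filter. The medians were -0.94 with shMed1 #2 and -1.12 with shMed1 #4, beside 0.00 for all genes. Summed over the 37 genes, the levels were 266, 281 and 281 CPM in shMed1 #2 samples, 268, 283 and 269 CPM in shMed1 #4 samples and 422, 431 and 520.0 CPM in NTC samples. All 6 hairpin sums lay below the lowest NTC sum. The antiviral gene Oasl2 (-4.03 and -2.71), the ADP-ribosyltransferase gene Parp14 (-3.84 and -2.58), the guanylate-binding protein gene Gbp3 (-3.82 and -2.38) and Ifit1 (-2.81 and -2.53) had the lowest log2 fold changes on the mean of both hairpins among those called with both. Parp14 had 5, 0 and 2 counts in shMed1 #2 samples, 5, 9 and 3 counts in shMed1 #4 samples and 31, 29 and 42 counts in NTC samples, and its value with shMed1 #2 was -4.96 without shMed1 #2 replicate 1 and -3.28 without shMed1 #2 replicate 2. Oasl2, Gbp3 and Ifit1 belong to families of similar genes, so their counts are uncertain where reads could be split. ISRE letters occurred in the promoter windows of 16 of the 30 effectors with a window (53.3%), against 1 of the 9 members and 3.99% of all 27025 genes with a window. GAS letters occurred in 7 of the 30 effectors (23.3%), 3 of the 9 members and 9.55% of all genes. Several of these effectors were chosen as targets of ISGF3, so their ISRE share is no independent result.

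**Figure D4:**
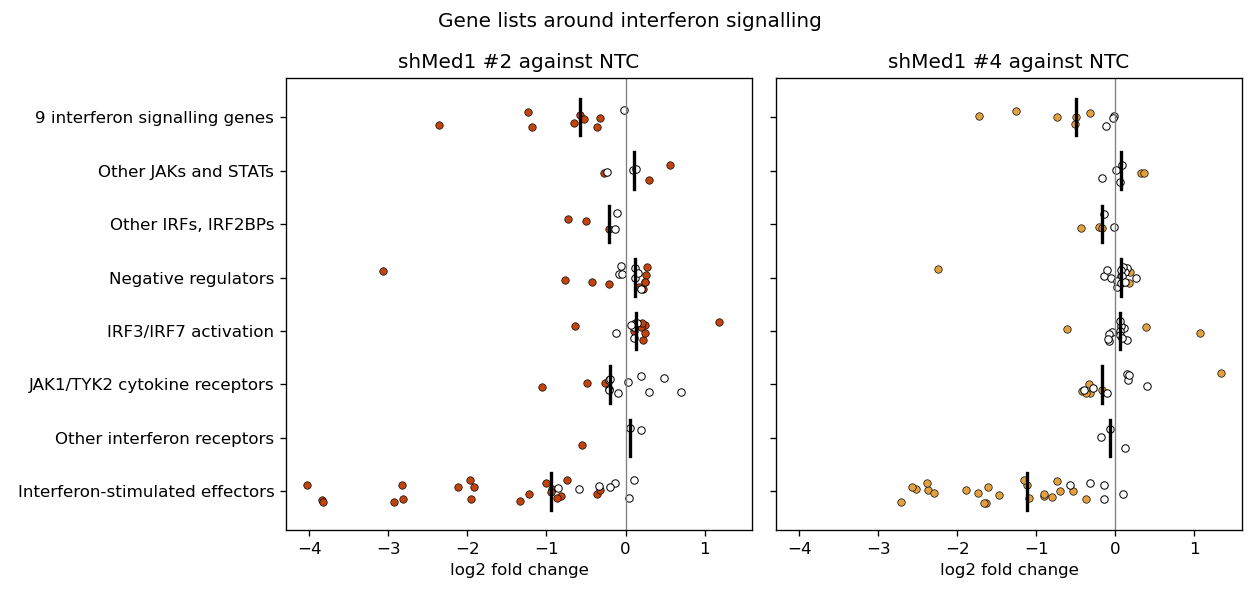
Log2 fold change against NTC of every tested gene of the 9 members and of the other lists, with shMed1 #2 at left and shMed1 #4 at right. Filled points passed an adjusted p of 0.05 over the 13611 genes, open points did not, and black bars are list medians. The members and the effectors lie mostly below 0. The negative regulators and the genes acting on IRF3 and IRF7 lie on both sides of 0, with Usp18 and Kpna1 far from the rest of their lists. Of the 14 genes listed as acting on IRF3 and IRF7, importin genes among them, 8 were called higher and 1 lower with shMed1 #2.

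For the 6 members lower with both hairpins, the genes with the most like pattern were sought among 10501 others as the smallest root mean square difference, over the 9 samples, of log2 CPM relative to the NTC mean. For Irf9 they were Irgm1 (0.152), C3 (0.182) and Angptl6 (0.210), of which Irgm1 is an interferon-induced GTPase and C3 the central complement component. For Irf7 they were Apol9a (0.343), Lcn2 (0.393) and Abcg1 (0.416), at larger distances than for the other members. At the 3 to 33 counts per library of Irf7, counting error adds to such distances, and its part in them was not tested. For Stat2 they were Tmem229b (0.147), Rin2 (0.149) and Isyna1 (0.153). For the receptor chains they were Zfp740 (0.0406), Heca (0.0422) and Nub1 (0.0476) beside Ifnar1 and Pdgfra (0.0727), C2cd5 (0.0763) and Edem1 (0.0784) beside Ifnar2, led by a growth factor receptor gene. For Tyk2 they were Nucb2 (0.0805), Sel1l (0.0810) and Sec24d (0.0819). The distances describe these 9 samples, which share their libraries.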

How the data were processed

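RNA from 9 samples was sequenced by the authors on a BGISEQ-500 instrument, per the labels, and the authors deposited raw counts per gene for each sample. The submitters' processing notes name STAR and HTSeq, with the build GRCm38 (mm10). The sources used here give no version, annotation release or strand setting for them. Symbols and positions come from GENCODE M21 on GRCm38, to which 55154 of 55335 identifiers matched without their version, and promoter sequences from RefSeq (GRCm38.p6).

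Genes were kept by filterByExpr, scaled by TMM (factors 0.982 to 1.02) and tested over all 9 samples with the quasi-likelihood test of edgeR 4.0.16 in R 4.3.3 (robust, 1 coefficient per group) with Benjamini-Hochberg adjustment over the 13611 genes. Calls are at an adjusted p below 0.05. CPM and RPKM use the scaled library sizes. Within each group the samples differed beyond sampling noise, with a chi-square per degree of freedom of 1.55 to 2.53, and the common biological coefficient of variation was 3.68%. Intervals on counts cover counting error only.

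The members and lists were chosen with earlier results of these data known. The text names all members, up to 4 genes per list (those called with both hairpins first, then by size), and the 3 genes most like each member called with both. Jak3, Il6st, Il11ra1 and Il12rb1 were named after their values were seen, because the counts they make up are small, as were Fn1, the genes at or near 0 counts and the overlapping genes. Some genes of the pathway are not reported here.

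Alternatives were scaling by RLE, by upper quartiles or by library size alone, testing all genes with at least 1 count, or those with at least 1 CPM in all 3 samples of a group, DESeq2 1.42.0, a non-robust fit, a fit of the compared groups alone, a replicate block, and leaving out each library. For the other lists they were added after seeing the data. The test was checked on simulated counts. Figures were drawn with matplotlib 3.10.9.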

Additional observations from a re-analysis of the deposited data

Results flagged for a closer look

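The effects of the hairpins differed for 3 of the 9 members by the test of the difference itself, edgeR's quasi-likelihood test of shMed1 #4 against shMed1 #2 with adjustment over the 13611 genes. All 3 were higher with shMed1 #4, where 12.9% of all tested genes were called higher and 13.1% lower. Stat2 was 0.45 higher on the log2 scale with shMed1 #4 than with shMed1 #2 (adjusted p = 0.0115), at means of 13.6 ± 2.39 CPM with shMed1 #4 and 10.0 ± 0.521 CPM with shMed1 #2 (SD, n = 3 each). Irf1 was 0.40 higher (adjusted p = 2.78e-05), at 43.2 ± 1.02 CPM with shMed1 #4 and 32.8 ± 1.89 CPM with shMed1 #2. Irf3 was 0.29 higher (adjusted p = 0.0167), at 28.8 ± 2.79 CPM with shMed1 #4 and 23.6 ± 2.58 CPM with shMed1 #2. The Stat2 and Irf3 calls were lost in the same edgeR test without shMed1 #4 replicate 1 (adjusted p = 0.119 and 0.168). That of Irf3 was also lost without shMed1 #2 replicate 2 (adjusted p = 0.174) and in DESeq2 (adjusted p = 0.0678). For each of the 3 members, every shMed1 #4 sample lay above the highest shMed1 #2 sample. The share of all tested genes that separate in this way is not given here. Groups of 3 samples are too small for the test for a single sample far from the others.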

How the results depend on the processing

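The 14 member results called against NTC with 1 hairpin were recomputed under 18 alternatives each, and the call and direction held in 251 of 252. The exception was Irf3 with shMed1 #2, without shMed1 #2 replicate 2. For shMed1 #4 against shMed1 #2, the count of members called was 3, and 1 to 3 when 1 library was left out, the lowest without shMed1 #4 replicate 1. No called member result turned its direction. The counts of all genes called were 5947 with shMed1 #2 (4903 to 6138 over all alternatives), 3836 with shMed1 #4 (2815 to 3878), 5434 with the mean of both (4306 to 5594) and 3540 between the hairpins (2524 to 3566).

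Replicate numbers showed no pairing of the samples over all genes. Deviations from the group means correlated at -0.0413 to 0.0416 for the 9 pairs with the same number and at -0.0374 to 0.0413 for the 18 pairs with different numbers. Such correlations could miss pairing that affects few genes, and the labels do not say whether numbers pair samples. With a replicate block, 8, 6, 7 and 3 members were called in the same 4 contrasts, as without it, and 5892, 3786, 5383 and 3461 genes. The fit with only the groups compared gives no separate value for the mean of both hairpins, which uses all 9 samples.

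Irf7 had 3 to 33 counts per library, so depth limits its precision most. For the other lists, settings that change a printed count of lower or higher genes against NTC by over 1.5 times are given beside that count.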
